A study of Mus musculus with 18 samples.

Results

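The mouse globin genes were followed in bone marrow (BM) cells of C57B6/J mice across ontogeny: the adult beta-like genes Hbb-bt and Hbb-bs, the adult alpha genes Hba-a1 and Hba-a2, and the embryonic genes Hbb-y, Hbb-bh1 and Hba-x. Members were chosen by name. Of the 7 genes listed, 5 had a row among the 20275 genes of the count matrix, namely Hbb-bt, Hbb-bs, Hba-a1, Hba-a2 and Hbb-y. Hbb-bh1 and Hba-x were not analysed here, so the embryonic class rests on Hbb-y. Single-cell RNA was counted in 56201 cells of 9 libraries: 20982 hematopoietic progenitors (HPs), sorted as CD45+ Lineage- Kit+, in 5 libraries, and 35219 stromal cells, sorted as CD45- Ter119-, in 4 libraries. The stages were embryonic day (E) 16.5, E18.5, postnatal day (P) 0 and adult, each from a pool of mice, with 1 library per stage and compartment except at E16.5, where there were 2 HP libraries (E16.5 HP 1 and E16.5 HP 2). The labels name no transgene and no treatment. Ter119 is a surface marker of maturing red cells. The stromal sort gated against it, and the methods list it in the lineage panel used for marrow progenitors in general. Fetal and neonatal marrow came from whole skeletons without the head, and adult marrow from leg bones, pelvis and spine. Red cells were lysed in adult preparations, a step that was left out for fetal marrow, so stage, library and preparation cannot be told apart. No test between stages was made. Intervals are exact 95% intervals and cover counting error only.

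Hemoglobin carries oxygen in red cells as a tetramer of alpha-like and beta-like chains, each holding a haem group. In the mouse the genes lie in an alpha cluster and a beta cluster, and the embryonic genes, used mainly by the first red cells of the yolk sac, give way to the adult genes once the liver makes blood. Low-level transcription of globin loci before commitment to the red cell lineage has been described as lineage priming of multipotent cells.

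In the GRCm38.p6 build, Hbb-bt lies at chr7:103812524-103813923, Hbb-bs at chr7:103826523-103827928 and Hbb-y at chr7:103851754-103853207, all on the minus strand. Hba-a1 lies at chr11:32283672-32284486 and Hba-a2 at chr11:32296492-32297310, both on the plus strand. No member overlapped another annotated gene. The promoters are shown because the levels of the 2 adult beta genes separated in these cells although the genes are close copies. Each line gives the 100 bases before the RefSeq start of the gene, 5′ to 3′ on its own strand, with capitals for matches on either strand to the CACCC box, the CCAAT box, the ATATAA box and the GATAA box; no 2 matches overlapped.
Hbb-bt, chr7:103813924-103814023, minus strand: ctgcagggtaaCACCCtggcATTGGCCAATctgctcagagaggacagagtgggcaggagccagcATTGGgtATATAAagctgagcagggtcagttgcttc
Hbb-bs, chr7:103827929-103828028, minus strand: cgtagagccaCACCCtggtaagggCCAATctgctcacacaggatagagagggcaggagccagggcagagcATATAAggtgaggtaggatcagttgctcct
Hba-a1, chr11:32283572-32283671, plus strand: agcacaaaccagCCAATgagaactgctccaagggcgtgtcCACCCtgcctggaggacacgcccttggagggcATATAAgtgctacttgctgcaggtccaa
Hbb-y, chr7:103853208-103853307, minus strand: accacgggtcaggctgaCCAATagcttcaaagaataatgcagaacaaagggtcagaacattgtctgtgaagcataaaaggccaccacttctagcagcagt

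CACCC is the core of the box bound by the erythroid factor Klf1, CCAAT is bound by general factors, ATATAA is a TATA box and GATAA is the core bound by GATA factors. The Hbb-bt window held 1 CACCC match, 3 matches to CCAAT and 1 ATATAA match, while the Hbb-bs and Hba-a1 windows held 1 of each. The Hbb-y window held 1 CCAAT match and neither CACCC nor an ATATAA match. No window of these 4 genes held GATAA. Among 32851 RefSeq promoters, 27.2% held CACCC, 18.9% CCAAT, 3.74% ATATAA and 8.55% GATAA in the same 100 bases. Over 250 bases before the start, Hbb-bt and Hbb-bs were identical at 70.5% of aligned positions, Hba-a1 and Hba-a2 at 97.6%, and Hbb-bt and Hbb-y at 54.2%. Transcripts of Hbb-bt and Hbb-bs were 83.0% identical and those of Hba-a1 and Hba-a2 75.1%. The last value is lowered by unequal length. The Hba-a1 and Hba-a2 transcripts had 699 and 554 bases, with 537 identical positions in an alignment of 715. Of all 90-base windows in the last 300 transcript bases, where this kind of library reads, 24.2% of those of Hbb-bt and 24.6% of those of Hbb-bs occurred in another globin, against 57.3% for Hba-a1, 49.8% for Hba-a2 and 0% for Hbb-y. Reads inside shared windows cannot be assigned to a gene, so the split of Hba-a1 from Hba-a2 is uncertain, and their sum is given beside or in place of their single values. The sum does not regain reads left unassigned, so alpha levels and shares may read low beside beta. The size of this was not tested.

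Libraries held 13974733 to 194892476 unique molecular identifiers (UMIs, each a counted transcript molecule), with a median of 6747 to 23291.5 UMIs per cell. Levels are given in CPM, the UMIs of a gene per 1e6 UMIs of the cells summed; since the kit counts transcript ends, they were not divided by gene length. Cell barcodes recurred between HP libraries: 330 barcodes were shared by E16.5 HP 1 and adult HP, 375 by E18.5 and adult HP, and 225 by P0 and adult HP. Cells with a shared barcode made up 59.6% of E16.5 HP 1, 12.2% of E18.5 HP, 13.2% of adult HP and 1.34% to 5.06% of the other libraries. They were deeper than other cells in E16.5 HP 1 and E18.5 HP, with medians of 30898.5 against 13813 and 51292 against 10369.5 UMIs. In P0 and adult HP they were shallower, at 741 against 19930 and 574.5 against 8197 UMIs. Leaving such cells out therefore also changed the depth of the cells kept. Main values without such cells are given mainly for E16.5 HP 1, E18.5 HP and the clusters EryP/MegP, MyP1, HSPC2 of E18.5 and MyP4. They are not given for the clusters richest in such cells. These were Mast/Bas of E18.5 (97.6%), Mast4i (96.5%) and Mast4ii (81.7%) of the adult and Mast4 of P0 (76.3%). The deposited cluster codes named for erythroid cells held erythroid markers, globins left out: 10 of 13 exceeded 10 CPM in EryP/MegP of E18.5, 11 of 13 in EryP1 of P0 and 12 of 13 in EryP2 of the adult, and 8 of 13 in EryP/MegP without cells sharing a barcode. The marker sum rose from 1150 CPM in EryP/MegP and 1847 CPM in EryP1 to 5180 CPM in EryP2, and was 948 CPM in EryP/MegP without those cells. Of 7 megakaryocyte markers, 4 also exceeded 10 CPM in EryP/MegP, whose code names both lineages, and E16.5 HP held no cluster with an erythroid code.

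Hbb-bt was the leading globin of E16.5 HP 2, E18.5 HP and P0 HP, while Hbb-bs led in the adult. In HPs, Hbb-bt measured 0.716 CPM (0.343 to 1.32) in E16.5 HP 1, 71.9 CPM (70.3 to 73.7) in E16.5 HP 2, 104.5 CPM in E18.5 HP, 97.3 CPM (95.6 to 99.0) in P0 HP and 278 CPM (273 to 282) in adult HP. In stroma it measured 0.684 CPM for E16.5, 0.240 for E18.5, 0.467 for P0 and 28.6 for the adult. Without cells sharing a barcode, Hbb-bt was at 126 CPM in E18.5 HP and E16.5 HP 1 held 1 UMI of it. The 2 libraries of E16.5 HP did not overlap, and they differed in makeup: the clusters TCell2 and TCell3, which carried most Hbb-bt in E16.5 HP 2, held 486 and 481 cells there but 1 and 4 cells in E16.5 HP 1. Without both clusters E16.5 HP 2 still held 11.9 CPM (11.1 to 12.8) of Hbb-bt. Clusters found in both libraries differed too, with 8.39 CPM in E16.5 HP 1 against 108 CPM in E16.5 HP 2 for HSPC1, and 0.259 against 20.5 CPM for Mono/Mast.

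Hbb-bs, the close copy of Hbb-bt, was near 0 in fetal HPs. It measured 0.429 CPM in E16.5 HP 1, 0.261 CPM in E16.5 HP 2, 1.45 CPM in E18.5 HP, 5.58 CPM in P0 HP and 445 CPM in adult HP. In E16.5 HP 1 it had 6 UMIs, and the cells that shared no barcode held 4 of them, or 1.35 CPM (0.369 to 3.46), against 1 UMI of Hbb-bt. Stroma held 2.01 CPM of it in the E16.5 library, 0.791 in the E18.5, 2.49 in the P0 and 85.3 in the adult library. In P0 stroma 1 cell held 289 of 486 Hbb-bs UMIs and in adult stroma 13 cells held 5097 of 7834, and without them these libraries held 1.01 and 29.9 CPM of Hbb-bs and 0.693 and 19.4 CPM of the summed alpha genes. Hbb-bs was lower in E16.5 HP 2 than in E16.5 stroma, the reverse of Hbb-bt.

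The alpha genes moved with Hbb-bs. Hba-a1, which makes an adult alpha chain, measured 0.286, 0.146, 0.524, 4.17 and 344 CPM in E16.5 HP 1, E16.5 HP 2, E18.5, P0 and adult HP, and 0.924, 0.507, 1.29 and 42.3 CPM in E16.5, E18.5, P0 and adult stroma. Hba-a2, its duplicate, measured 0.143, 0.0626, 0.216, 1.37 and 89.2 CPM in the same HP libraries and 0.667, 0.240, 0.759 and 14.1 CPM in the same stromal libraries. Without cells sharing a barcode, E18.5 HP held 0.209 CPM of Hba-a1 and 0.0628 CPM of Hba-a2. Both were higher in adult HP than in every other library, and in E16.5 HP 2 neither exceeded its level in E16.5 stroma. Hbb-y, the embryonic epsilon-like beta chain, measured 0.115 CPM (0.0573 to 0.205) in E16.5 HP 2, 0.200 CPM (0.107 to 0.343) in E18.5 HP, 0.149 CPM (0.0897 to 0.233) in P0 HP and 0.0169 CPM (0.000428 to 0.0941) in adult HP. By a limit of 3 counts for a gene with 0 UMIs, the 0 UMIs of E16.5 HP 1 allow up to 0.215 CPM. It had 0 UMIs in E16.5, E18.5 and adult stroma, which allows up to 0.0257, 0.0267 and 0.0327 CPM, and 1 UMI in P0 stroma.

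**Figure D1:**
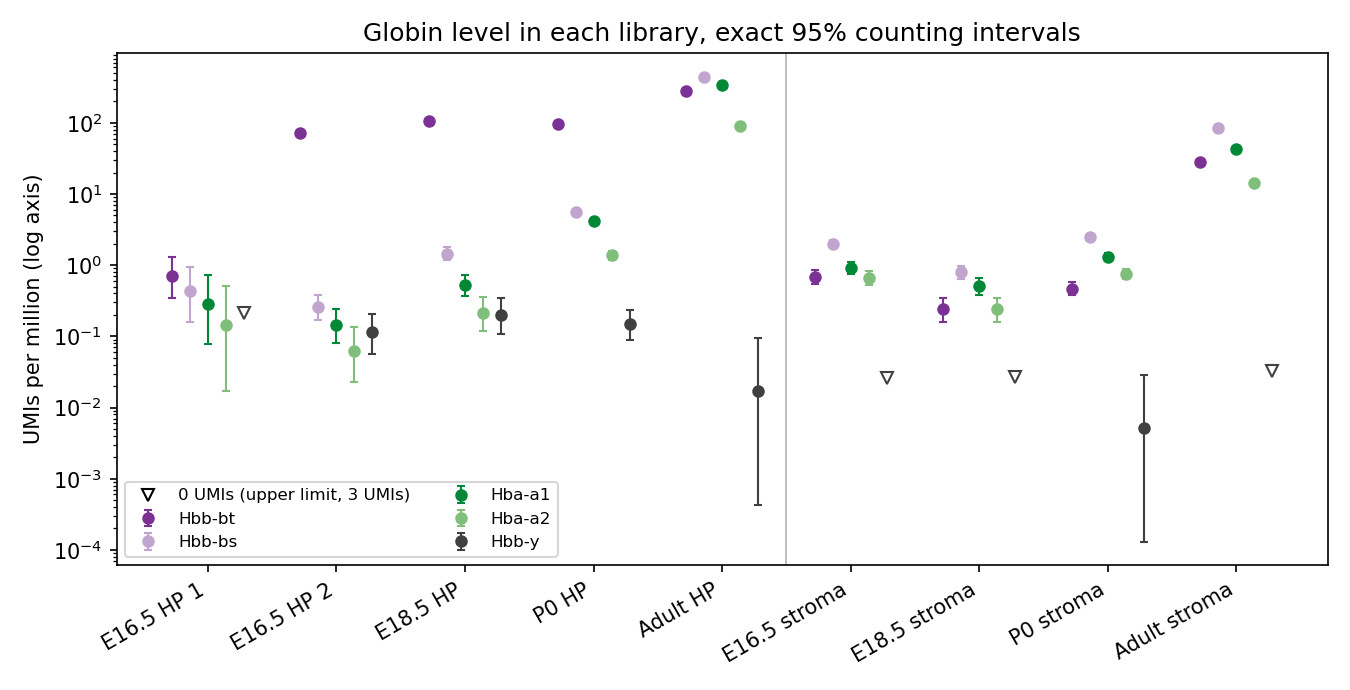
Level of each globin gene (CPM, log axis) in the 5 HP and 4 stromal libraries. Points are sums over all cells of a library, bars are exact 95% counting intervals and open triangles are upper limits for genes with 0 UMIs; Hbb-bt stands above the other globins in E16.5 HP 2, E18.5 HP and P0 HP and below Hbb-bs in adult HP and in all 4 stromal libraries.

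In E16.5 HP 2, which held no cluster with an erythroid code, Hbb-bt was highest in T cell clusters. At E18.5 and P0 it was highest in stem and progenitor clusters rather than in erythroid clusters. At E16.5 the highest clusters of E16.5 HP 2 were TCell2 with 285 CPM (275 to 295) and TCell3 with 213 CPM (205 to 221), followed by the stem and progenitor cluster HSPC1 with 108 CPM (96.6 to 120). At E18.5 HSPC2 reached 469.5 CPM (456 to 483) and the myeloid progenitor cluster MyP1 148 CPM (141 to 155), while EryP/MegP reached 28.9 CPM (25.5 to 32.6). Without cells that shared a barcode, these 3 clusters held 466.5, 191 and 43.8 CPM, in the same order. At P0 HSPC2 reached 432 CPM (419 to 444) and HSPC3 313 CPM (304 to 322), while EryP1 reached 31.9 CPM (29.3 to 34.7). The median cluster of the same libraries held 1.85 CPM in E16.5 HP 2, 4.54 CPM in E18.5 HP and 31.8 CPM in P0 HP, and each of these libraries had a cluster at 0 CPM. In the adult the order turned: EryP2 held 1209 CPM (1190 to 1228), HSPC5 39.1 CPM (34.0 to 44.7) and the lowest cluster, Mono4, 3.67 CPM.

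Hbb-bt was present in many cells of these clusters and not in a few. A UMI of it was found in 46.5% of TCell2 cells and 47.6% of TCell3 cells of E16.5 HP 2, in 53.6% of HSPC2 and 52.9% of MyP1 cells of E18.5, and in 56.4% of HSPC2, 54.1% of HSPC3 and 44.6% of HSPC4 cells of P0. In stroma the share was 0.425% in the E16.5, 0.256% in the E18.5 and 0.327% in the P0 library, at median depths of 12895, 15590.5 and 13612.5 UMIs per cell against 13934.5 to 46141 in those clusters. After every cell was thinned to 1000 UMIs, the shares were 16.7% in TCell2, 10.8% in TCell3, 22.4% in HSPC2 and 8.43% in MyP1 of E18.5, and 23.6% in HSPC2, 18.5% in HSPC3 and 8.04% (3.74 to 14.7) in HSPC4 of P0, against 0.0366%, 0.0154% and 0.0872% in E16.5, E18.5 and P0 stroma. The shares thus remained far above those of stromal cells at equal depth. The highest count in a cell was 162 UMIs in TCell2, 179 in HSPC2 of E18.5 and 133 in HSPC2 of P0.

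Pooled over all HSPC codes, Hbb-bt measured 108 CPM in E16.5 HP 2, 469.5 CPM in E18.5 HP, 315 CPM (309 to 321) in P0 HP and 39.1 CPM in adult HP. E16.5 HP 1 held 33 HSPC1 cells with 7 Hbb-bt UMIs, or 8.39 CPM (3.37 to 17.3); its 13 HSPC1 cells that shared no barcode held 0 Hbb-bt UMIs. Relative to stroma of the stage, sequenced as a separate library, the HSPC level was 157-fold in E16.5 HP 2 (123 to 203), 1956-fold in E18.5 HP (1343 to 2971), 675-fold in P0 HP (549 to 839) and 1.37-fold in adult HP (1.18 to 1.57). A few stromal cells set the last 2 values: 1 cell held 39 of 91 Hbb-bt UMIs of P0 stroma and 13 cells held 1817 of 2627 in adult stroma, all with at least 100 adult-type globin UMIs. Without them the HSPC level stood at 1181-fold (900.1 to 1583) for P0 and 4.41-fold (3.78 to 5.14) for the adult. In ratios to stroma, here and below, cells rich in globin were left out of the stroma only, which raises the ratio. The ratio of erythroid to HSPC clusters for Hbb-bt was 0.0616 for E18.5 (0.0542 to 0.0698), 0.101 for P0 (0.0928 to 0.110) and 30.9 for the adult (27.0 to 35.6). For Hbb-bs the same ratio was 2.93 (1.79 to 4.97), 14.2 and 199.5 for these stages, and for the summed alpha genes it was 43.2 (7.30 to 1748, from 1 HSPC UMI), 106.6 and 166. Without cells that shared a barcode, the E18.5 ratio was 0.0940 (0.0810 to 0.109) for Hbb-bt and 2.25 (1.23 to 4.16) for Hbb-bs, and the alpha genes had 4 UMIs in EryP/MegP, in place of 39, against 1 in HSPC2, a ratio whose interval (0.821 to 408) includes equality. Hbb-bt therefore ran opposite to Hbb-bs between erythroid and HSPC clusters at E18.5 and opposite to Hbb-bs and the alpha genes at P0, and alongside them in the adult. Each ratio rests on 1 library per stage, and the difference between stages was not tested.

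**Figure D2:**
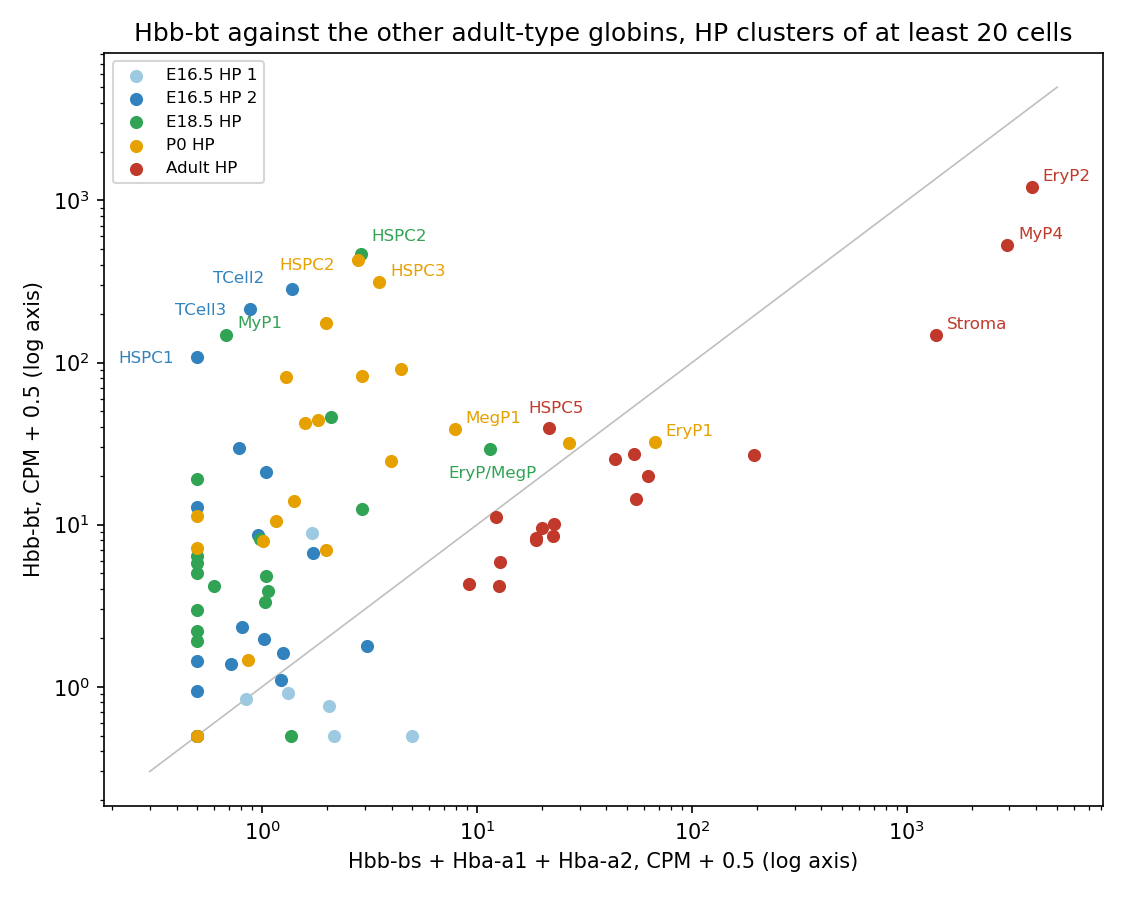
Hbb-bt (vertical axis) against the sum of Hbb-bs, Hba-a1 and Hba-a2 (horizontal axis) in each HP cluster of at least 20 cells, both in CPM on log axes with a small constant added so that 0 can be drawn; the grey line marks equal levels. HSPC2 of E18.5 and P0, HSPC3 of P0 and TCell2 and TCell3 of E16.5 HP 2 lie far above the line, P0 EryP1 lies below it, and of the adult clusters HSPC5 alone lies above it.

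The makeup of adult beta-globin UMIs separated the same clusters. Hbb-bt made up 3221 of 3231 beta UMIs in TCell2 (99.7%), 2823 of 2824 in TCell3 and 345 of 345 in HSPC1 of E16.5 HP 2. It made up 99.5% (99.3 to 99.7) in HSPC2 and 99.9% in MyP1 of E18.5, and 99.5% in HSPC2 and 99.2% in HSPC3 of P0. In erythroid clusters the share was lower: 81.1% (76.4 to 85.2) in EryP/MegP, 52.0% (49.0 to 55.1) in EryP1 and 38.4% (37.9 to 38.9) in EryP2. Without cells whose barcode recurred in another library, which were 82 of 205 in EryP/MegP, its share was 88.6% (83.6 to 92.5). In EryP1 without the cell with the most globin, the share was 56.4% (52.9 to 59.8). Among clusters with at least 50 beta UMIs, the share exceeded 90% in 6 of 6 clusters of E16.5 HP 2, 2 of 3 of E18.5 HP, 10 of 12 of P0 HP and 0 of 8 of adult HP, where HSPC5 was highest at 80.1% (74.8 to 84.7). In E16.5 HP 1 as a whole, Hbb-bt made up 10 of 16 beta UMIs (62.5%, 35.4 to 84.8). Without cells sharing a barcode it made up 1 of 5 there.

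Stroma carried the opposite makeup. Hbb-bt made up 25.4% (20.7 to 30.6) of beta UMIs in E16.5 stroma, 23.3% (15.9 to 32.0) in E18.5 stroma, 15.8% (12.9 to 19.0) in P0 stroma and 25.1% (24.3 to 25.9) in adult stroma. The alpha genes made up 37.1%, 42.0%, 40.9% and 33.1% of adult-type globin UMIs in the same libraries. In HPs outside erythroid clusters the alpha share was 0.288% in E16.5 HP 2, 0.137% in E18.5 HP and 0.520% in P0 HP. E16.5 HP 1 did not show this low share, with 6 alpha UMIs among 22 (27.3%, 10.7 to 50.2). The summed alpha level of HSPC clusters was 0.134 times (0.00334 to 0.765) that of stroma for E18.5 and 0.171 times (0.0847 to 0.309) for P0. In P0 stroma 1 cell held 265 of 400 alpha UMIs, and without it the ratio was 0.507 (0.247 to 0.936). The alpha genes were thus lower than in stroma in the same clusters in which Hbb-bt was far higher. Hbb-bs did not share this: its HSPC level was 2.90 times (1.75 to 4.63) that of stroma for E18.5. That value rests on 23 UMIs, 13 of them in 1 cell. For P0 the Hbb-bs ratio was 0.831 (0.632 to 1.08), or 2.05 (1.53 to 2.73) without the same stromal cell. In adult HPs, Hbb-bt made up 38.4% (37.9 to 38.9) of beta UMIs in EryP2 and 39.1% (37.0 to 41.2) in all other clusters, but 1 MyP4 cell held 1673 of the 3413 adult-type UMIs of the latter. Without that cell their Hbb-bt share was 53.4% (50.5 to 56.3), above that of EryP2. The alpha genes made up 37.5% of adult-type UMIs in EryP2 and 37.3% in the other clusters, or 33.0% (30.8 to 35.3) without the cell.

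**Figure D3:**
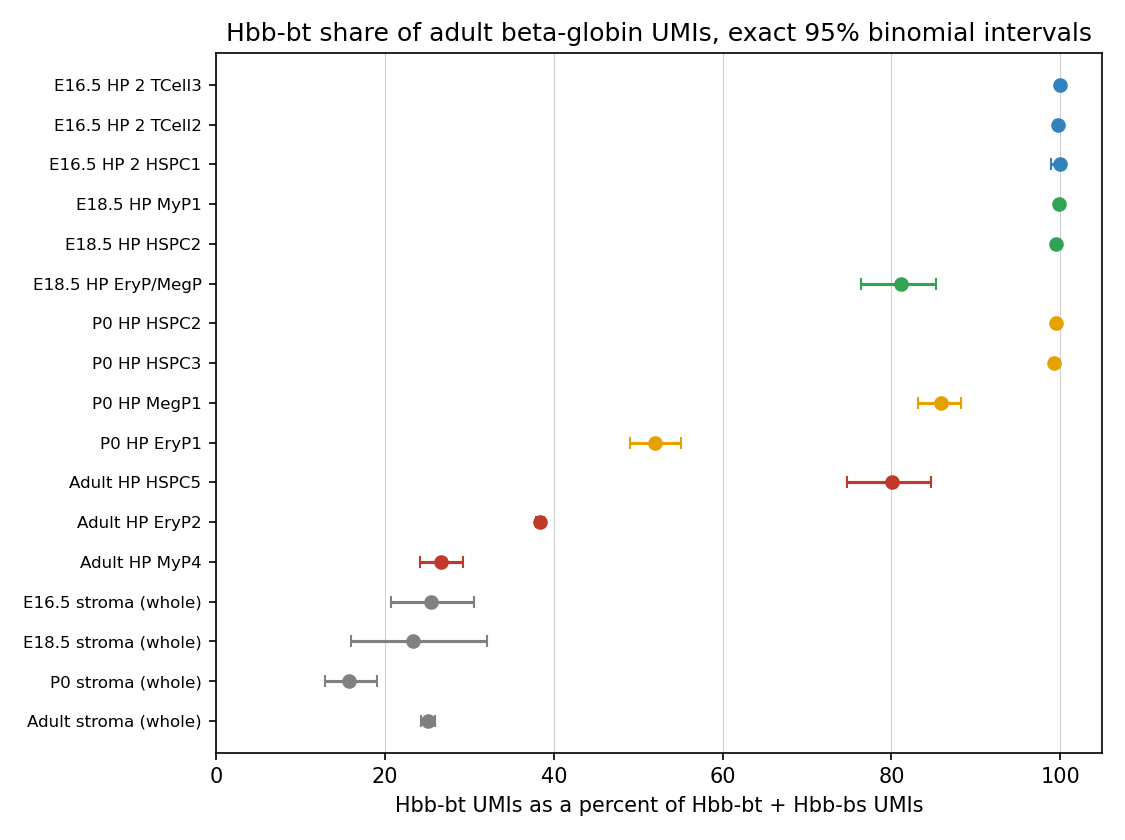
Hbb-bt UMIs as a percent of Hbb-bt plus Hbb-bs UMIs in selected HP clusters and in whole stromal libraries. Points are sums over cells and bars exact 95% binomial intervals; HSPC, T cell and MyP1 clusters of E16.5 HP 2, E18.5 and P0 sit above 99%, erythroid clusters between 38.4% and 81.1%, the megakaryocyte cluster MegP1 of P0 at 85.9%, adult MyP4 at 26.6% (49.0% without its highest cell), and stroma between 15.8% and 25.4%.

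Pairs of globins were also counted cell by cell. Of cells with an Hbb-bt UMI, an alpha UMI was found in 1 of 208 in HSPC2 of E18.5, 2 of 390 in HSPC2 of P0, 0 of 226 in TCell2 and 2 of 229 in TCell3. Among cells without Hbb-bt there, it was 0 of 180, 0 of 302, 0 of 260 and 1 of 252. Alpha UMIs were thus rare in these clusters with or without Hbb-bt. Pairs of Hbb-bt and alpha were more frequent in EryP1, in 79 of 169 Hbb-bt cells (46.7%), and in EryP2, in 247 of 283 (87.3%). In EryP/MegP they were found in 12 of 77 such cells (15.6%), but in 1 of 40 (0.0633% to 13.2%) without cells sharing a barcode, an interval that overlaps those of the HSPC and T cell clusters. Hbb-bs was found in 7 of 208 Hbb-bt cells of HSPC2 at E18.5, 16 of 390 of HSPC2 at P0 and 209 of 283 of EryP2. In cells of these clusters without Hbb-bt it was less frequent, in 0 of 180, 4 of 302 and 43 of 191. Of the 11 HP cells outside erythroid codes that held at least 100 globin UMIs before adulthood, 6 were in E16.5 HP 2, 4 in E18.5 HP and 1 in P0 HP. All 11 held at least 104 Hbb-bt UMIs and at most 1 UMI of any other member.

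Within a cluster, the cells rich in Hbb-bt also held more transcripts of stem cell genes. Cells with at least 5 Hbb-bt UMIs were set against cells with 0, leaving out those with 1 to 4, which gave 135 against 180 cells in HSPC2 of E18.5, 65 against 123 in MyP1, 217 against 302 in HSPC2 of P0 and 196 against 322 in HSPC3. Hlf, a transcription factor of stem cells, was 2.91-fold (2.58 to 3.29), 2.86-fold, 1.97-fold and 3.19-fold as high in the Hbb-bt cells of those clusters. Mecom, a regulator needed for stem cell maintenance, was 5.12-fold, 5.63-fold, 3.27-fold and 3.72-fold as high. Procr, the endothelial protein C receptor used to sort stem cells, was 11.3-fold (6.03 to 23.3), 2.59-fold (1.23 to 5.53), 3.56-fold (2.35 to 5.51) and 6.60-fold (4.05 to 11.2) as high. All 3 genes were higher in Hbb-bt cells in these 4 clusters, as was Mllt3, a further stem cell gene, at 2.81-fold to 2.98-fold. The median depths of the 2 sets were 24952 and 23660 UMIs in HSPC2 of E18.5, 36217 and 42929 in MyP1, 11989 and 14997 in HSPC2 of P0, and 19614 and 23534.5 in HSPC3. In MyP1, where 26.4% of cells shared a barcode, leaving those cells out gave 2.10-fold to 2.97-fold for Hlf, 3.02-fold to 7.38-fold for Mecom and 1.18-fold to 5.66-fold for Procr as exact intervals.

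Cd34, a surface marker of progenitors in general, did not separate the cells, with ratios of 1.01 (0.928 to 1.09), 0.925, 0.967 and 1.04. Mpo, the myeloperoxidase of granulocyte precursors, was lower in Hbb-bt cells of each cluster at 0.457, 0.374, 0.409 and 0.267 times the level of cells without. The erythroid regulators Klf1 and Gata1 were low in the clusters as a whole. Klf1 measured 1.00 CPM in HSPC2 of E18.5 and 2.21 CPM in HSPC2 of P0, and Gata1 2.69 and 6.63 CPM. EryP1 held 140 CPM of Klf1 and 92.7 CPM of Gata1. Alas2, the erythroid form of the first enzyme of haem synthesis, had 0 CPM in HSPC2 of both stages. Other listed regulators were not low in HSPC2 of P0, with Lmo2 at 358, Myb at 242, Nfe2 at 66.7 and Tal1 at 33.1 CPM. The erythroid markers Car2 and Hemgn measured 237 and 18.8 CPM there. In HSPC1 of E16.5 HP 2, where 15 cells held at least 5 UMIs, Hlf was 7.84-fold (4.55 to 13.6) as high in them; this cluster also held 4620 CPM of mast cell markers. In adult HSPC5 only 11 cells passed 5 UMIs, and Hlf was 2.07-fold (1.31 to 3.12) as high in them.

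The T cell clusters of E16.5 HP 2 were different. Their T cell markers summed to 5186 CPM in TCell2 and 5740 CPM in TCell3, and TCell3 also held 2057 CPM of mast cell markers. Hbb-bt cells there held less of the T cell receptor genes: Cd3d was 0.390 times (0.334 to 0.453) as high as in cells without Hbb-bt in TCell2 and 0.494 times in TCell3, and Cd3e 0.452 and 0.627 times. Hlf had 0 UMIs in Hbb-bt cells of either cluster and 10 and 6 UMIs in the cells without. Cells are not replicates, and these ratios describe cells of 1 library each.

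**Figure D4:**
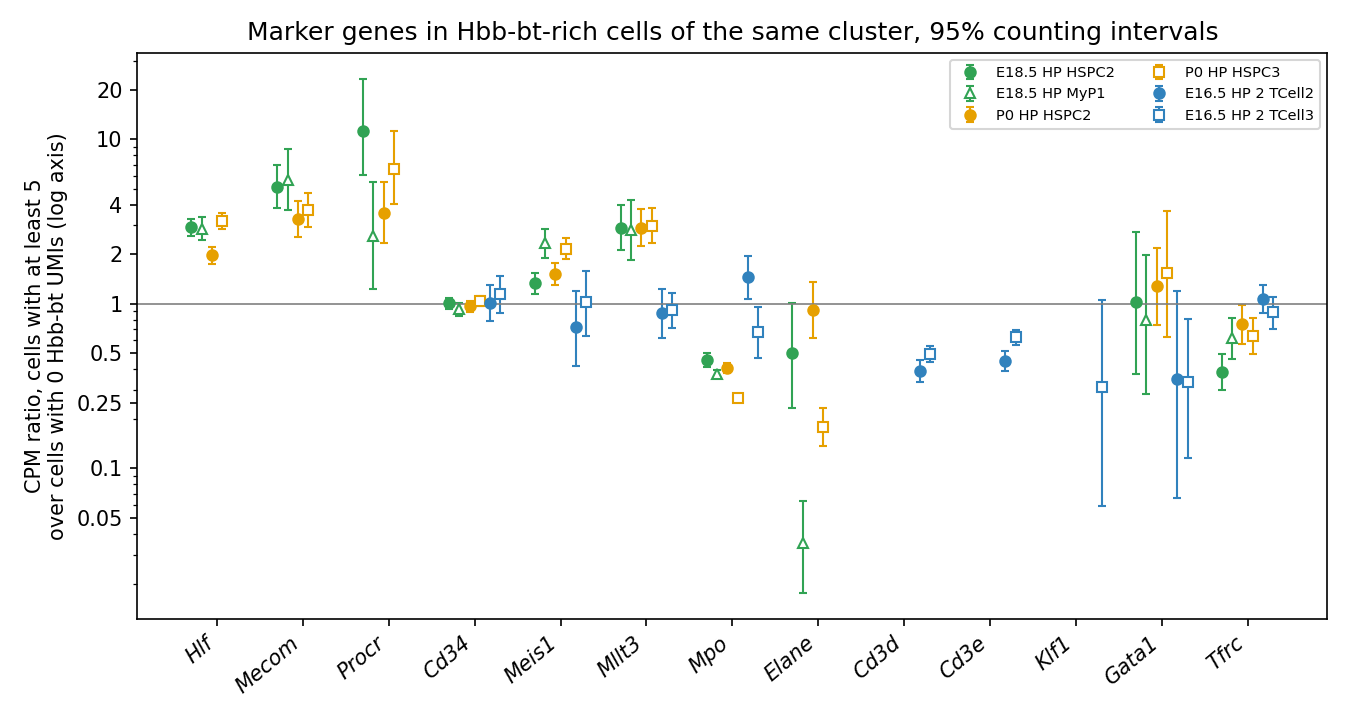
Ratio of the level (CPM) of marker genes in cells with at least 5 Hbb-bt UMIs to that in cells with 0 of the same cluster, on a log axis with exact 95% counting intervals. Hlf, Mecom, Procr and Mllt3 lie above 1 in all 4 HSPC and myeloid clusters shown, Mpo lies below 1 in them, and Cd3d and Cd3e lie below 1 in both T cell clusters; ratios with 0 UMIs on a side or under 20 UMIs in all are not drawn.

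In the erythroid clusters themselves, the 4 adult-type genes were highest in the adult, and Hbb-bt differed least between E18.5 and P0. In EryP/MegP, EryP1 and EryP2, Hbb-bt measured 28.9, 31.9 and 1209 CPM, Hbb-bs 6.73, 29.4 and 1941 CPM, Hba-a1 3.09, 28.2 and 1515 CPM, and Hba-a2 1.21, 9.17 and 374 CPM. The P0 level of Hbb-bt was 0.951-fold to 1.28-fold that of E18.5, an interval that includes equality, while Hbb-bs was 4.37-fold (3.35 to 5.80), Hba-a1 9.13-fold (6.24 to 13.9) and Hba-a2 7.55-fold (4.11 to 15.4) as high. The ratios of Hbb-bt and the alpha genes depended on the 82 EryP/MegP cells with a shared barcode: without them EryP/MegP held 43.8 CPM of Hbb-bt (37.9 to 50.5), above the level of EryP1, with 0.904 CPM of Hba-a1 from 4 UMIs. Hbb-bs was then at 5.65 CPM, and its P0 level, also without such cells, was 5.28-fold (3.53 to 8.23) as high. Between the adult and P0 the same genes differed by 37.8-fold, 65.9-fold, 53.7-fold and 40.8-fold. Hbb-bs in EryP1 leaned on few cells: without the cell with the most globin it was at 20.8 CPM, which was 3.08-fold (2.35 to 4.12) the E18.5 level, and the adult level was 93.4-fold (84.2 to 104) as high, while without the top 1% of cells it was at 14.5 CPM. In such sums, the share of late precursors in a cluster and the globin RNA of each cell cannot be told apart.

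Globin transcripts were unevenly spread among erythroid cells. In EryP2, 96 of 474 cells held no adult-type globin UMI, the median cell held 5 and the highest 3599, and the largest share of the UMIs of a cell was 48.9%. Of these cells, 23 held 47.7% of all globin UMIs of the cluster. In EryP1, 172 of 465 cells held none, the median was 1 and the highest 288 UMIs. In EryP/MegP, 103 of 205 cells held none and the highest cell held 38 UMIs. Relative to stroma of the stage, the summed adult-type globins were 22.5-fold (18.9 to 26.8) in EryP/MegP, 19.7-fold (18.2 to 21.3) in EryP1 and 29.6-fold (29.1 to 30.1) in EryP2. Without the stromal cells holding at least 100 globin UMIs, which were 1 at P0 and 13 in the adult, EryP1 stood 50.1-fold (44.8 to 56.1) and EryP2 86.6-fold (84.2 to 89.1) over stroma. Relative to the other HP cells of the same library they were 0.340-fold, 0.899-fold and 68.3-fold, with Hbb-bt alone at 0.248-fold, 0.297-fold and 66.9-fold and Hbb-bs at 11.4-fold, 15.9-fold and 68.9-fold. Without cells sharing a barcode, EryP/MegP stood 29.7-fold over stroma and 0.373-fold over the other HP cells, with Hbb-bt at 0.327-fold and Hbb-bs at 7.65-fold.

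Cells of each erythroid cluster were ordered by the summed level of 9 late red cell genes, globins left out, and cut into 3 groups of equal size. The cuts lay at 74.0 and 281 CPM in EryP/MegP, 407 and 592 CPM in EryP1, and 533 and 1026 CPM in EryP2. Groups of the same name are therefore not matched between stages, and even the high group of EryP/MegP began below the cuts of EryP1. The share of Hbb-bt among beta UMIs was lower in the middle than in the low group and lowest in the high group of each cluster. It was 87.1% (80.3 to 92.1), 81.4% and 70.7% (59.6 to 80.3) in EryP/MegP, 68.9% (61.9 to 75.4), 60.2% and 45.3% (41.6 to 49.1) in EryP1, and 64.8% (55.0 to 73.8), 55.8% and 37.4% (36.9 to 37.9) in EryP2. The intervals of the low and high groups did not overlap in EryP1 and EryP2 and nearly touched in EryP/MegP, where without cells sharing a barcode the shares were 94.3% (88.0 to 97.9), 86.8% and 69.6% (47.1 to 86.8). In EryP1, 1 cell held 150 of 507 Hbb-bs UMIs and was kept in these groups. In the adult, Hbb-bt rose from 16.2 to 233 to 3688 CPM, Hbb-bs from 8.78 to 184 to 6168 CPM and Hba-a1 from 19.0 to 290.3 to 4626 CPM. At P0, Hbb-bt went from 23.8 to 17.3 to 55.2 CPM, Hbb-bs from 10.8 to 11.4 to 66.7 CPM and Hba-a1 from 7.71 to 9.90 to 67.5 CPM. At E18.5, Hbb-bt went the other way, from 45.5 to 27.9 to 16.9 CPM, while Hba-a1 went from 0.753 to 1.34 to 6.42 CPM. Without cells sharing a barcode, Hbb-bt there went from 70.2 to 53.1 to 10.5 CPM, and Hba-a1 had 1, 0 and 3 UMIs. The groups are ranges of a score and not cell types: 14 to 75 cells of a cluster lay within 10 percent of a cut.

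**Figure D5:**
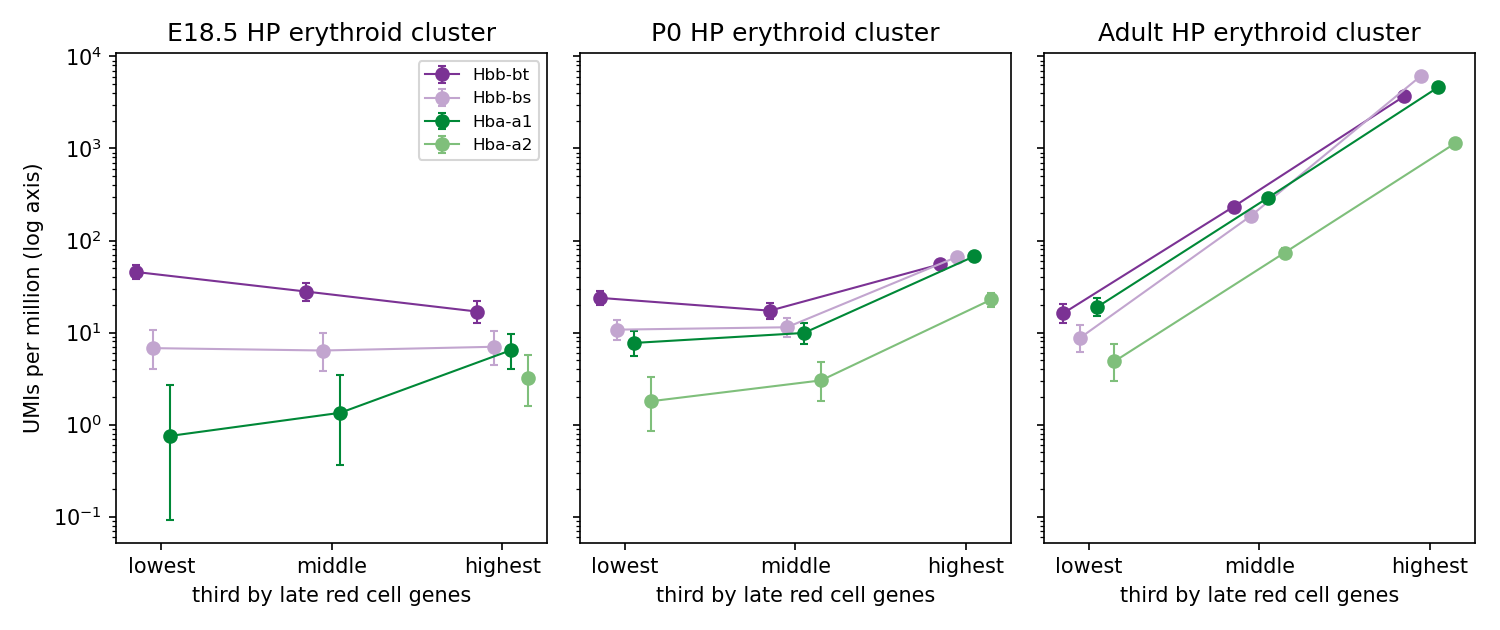
Level of the adult-type globins (CPM, log axis, exact 95% counting intervals) in 3 equal-sized groups of the cells of each erythroid cluster, ordered by late red cell genes other than globins. The cuts were set within each cluster, so groups of the same name are not matched between stages. All 4 genes climb steeply in the adult cluster, all 4 are highest in the high group at P0, and at E18.5 Hbb-bt falls from 45.5 to 16.9 CPM; Hba-a2 had 0 UMIs in the low and middle groups of E18.5, which are not drawn.

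Erythroid clusters were also compared over the whole transcriptome. Of 9253 genes with at least 50 UMIs in either cluster, 374 (4.04%) were at least 2-fold higher in the adult than at P0 and 1430 (15.5%) at least 2-fold lower. The 4 adult-type members were among the higher, 4 of 4 that could be compared; Hbb-y, with 1 UMI in each cluster, fell under the count minimum. Between P0 and E18.5, 2.44% of 9142 genes were at least 2-fold higher and 3.6% at least 2-fold lower, and between the adult and E18.5, 5.55% of 8860 genes were at least 2-fold higher and 17.5% at least 2-fold lower. Hba-a1 and Hba-a2, with 28 and 11 UMIs in EryP/MegP, met the count minimum only through the later cluster, so members are not counted in these 2 comparisons. These comparisons share libraries, and members were counted with 1 library per stage.

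The partners of globin in hemoglobin assembly were followed from fixed lists. Genes that met the minimum of 50 UMIs in 1 cluster only could be called in 1 direction only, so they are given by their values and not counted. Over all genes, 4.04% were at least 2-fold higher in the adult and 15.5% lower, but under a minimum in either cluster. No share over all genes was made for the minimum in both clusters. The counts of the fixed lists, here and below, therefore have no like background and are descriptions only. Of 8 haem synthesis genes, 7 met it in both clusters, and of these 1, Uros, uroporphyrinogen synthase, was at least 2-fold higher in the adult than at P0, at 2.25-fold. Alas2 had 5 UMIs in EryP1 and 101 in EryP2, a ratio of 27.0 (11.2 to 84.8). The other 6 stayed within 2-fold, among them Alad at 1.00-fold and Fech, which inserts iron into the haem ring, at 1.02-fold. Of 4 iron uptake genes, Slc25a37, the mitochondrial iron importer, was 2.78-fold higher and Tfrc, the transferrin receptor, stood at 0.932-fold. None of the 11 haem and iron genes counted was 2-fold lower, and 9 stayed within 2-fold.

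Of 14 red cell membrane genes, 12 met the minimum in both clusters, and of these 4 were at least 2-fold higher in the adult than at P0 and 8 stayed within 2-fold. The other 2 were Slc4a1, the anion exchanger band 3, with 5 UMIs in EryP1 and 430 in EryP2, a ratio of 115 (48.8 to 355), and Epb42, protein 4.2, with 25 and 178 UMIs, a ratio of 9.50 (6.23 to 15.1). Of 7 other erythroid genes, 4 were at least 2-fold higher, led by Car1, a carbonic anhydrase, at 12.1-fold, with Hemgn at 3.36-fold, Aqp1 at 3.19-fold and Car2 at 2.80-fold. Epor, the erythropoietin receptor, stood at 0.949-fold (0.870 to 1.03). The alpha chain chaperone Ahsp had no row in the matrix and was not analysed here.

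Of 15 transcription factors and globin regulators, 12 met the minimum in both clusters, and of these 1 was at least 2-fold higher in the adult than at P0, 1 was lower and 10 stayed within 2-fold. Sox6, a repressor of embryonic globin, was 4.74-fold higher (3.51 to 6.50). Igf2bp3, an RNA-binding protein linked to fetal programs, was lower at 0.148-fold. Lin28b and Hmga2, also linked to fetal programs, met the minimum in EryP1 only: Lin28b had 382 UMIs there and 0 in EryP2, and Hmga2 had 751 and 3 UMIs. Klf1, which binds CACCC boxes, stood at 1.17-fold (upper bound 1.24), Gata1 at 0.850-fold and Bcl11a, the repressor of embryonic and fetal globin, at 0.609-fold (0.574 to 0.645). Tal1, a partner of Gata1, differed by less than 2-fold as well. Whether the levels of these factors bear on the globin levels was not tested. Bcl11a was also present where Hbb-bt was nearly alone, at 246 CPM in HSPC2 of E18.5 and 137 CPM in HSPC2 of P0, against 212 CPM in EryP1, and Lin28b measured 18.7 and 21.5 CPM there, against 22.2 CPM in EryP1.

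Hbb-y, the measured embryonic gene, was a trace in each library. It made up 11 of 6951 globin UMIs in E16.5 HP 2 (0.158%), 13 of 6929 in E18.5 HP (0.188%), 19 of 13839 in P0 HP (0.137%) and 1 of 68447 in adult HP. In erythroid clusters it had 1 UMI each: 1 of 363 globin UMIs in EryP/MegP (0.275%), 1 of 1702 in EryP1 (0.0588%) and 1 of 65034 in EryP2. The 11 UMIs of E16.5 HP 2 lay in 11 cells, all with T cell codes. At E18.5, 5 cells held the 13 UMIs, of which 9 were in 1 Mono1ii cell, and at P0 9 cells held the 19 UMIs, of which 9 were in 1 TCell5 cell. Both cells with 9 Hbb-y UMIs held 0 UMIs of Hbb-bt, Hbb-bs, Hba-a1 and Hba-a2. By their intervals, Mono1ii at E18.5 (5.64 CPM, 2.71 to 10.4) and TCell5 at P0 (12.1 CPM, 5.54 to 23.0) stood above the erythroid cluster of their library, but without these single cells they held 1 and 0 Hbb-y UMIs and overlapped it. Between libraries, the interval of adult HP overlapped those of E16.5 HP 2 and P0 HP and lay below that of E18.5 HP, but without the Mono1ii cell E18.5 HP held 4 UMIs, or 0.0617 CPM (0.0168 to 0.158), and overlapped as well.

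Cells outside erythroid clusters were searched for any member after thinning to 1000 UMIs, leaving out 16 to 1016 shallower cells per HP library. A globin UMI remained in 0.184% of such cells in E16.5 HP 1, 3.34% (2.84 to 3.89) in E16.5 HP 2, 5.01% (4.16 to 5.98) in E18.5 HP, 7.22% (6.55 to 7.93) in P0 HP and 4.27% (3.70 to 4.90) in adult HP. Stromal cells gave 0.281%, 0.154%, 0.285% and 7.17% (6.54 to 7.84) from E16.5 to the adult. Before thinning the shares were 3.21%, 14.6%, 14.4%, 25.3% and 17.5% in HPs and 1.79%, 1.13%, 1.79% and 50.4% in stroma. HPs of E16.5 HP 2, E18.5 and P0 were above stroma of their stage, while adult HPs as a whole were below it, so their pooled share is not read as expression. HSPC5 taken alone was above adult stroma for Hbb-bt, with 3.84% (2.48 to 5.66) of thinned cells against 1.16% (0.905 to 1.45). In adult stroma, 13 cells with at least 100 globin UMIs held 66.0% of all its globin UMIs, and in P0 stroma 1 cell held 60.7%. Each of the 13 adult cells carried Slc4a1 or Klf1 UMIs as well, and the cluster P4, with 3239 CPM of adult-type globins, was highest, but without 3 of these cells it held 69.5 CPM, against 135 CPM in CARs, which was then highest.

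Some adult HP clusters outside EryP2 read high in globin but were shallow. MyP4 held 530 CPM of Hbb-bt, 1460 CPM of Hbb-bs and 1477 CPM of alpha genes, with a median of 570 UMIs per cell, and 1 of its cells held 1673 globin UMIs among 6259. Without that cell MyP4 held 171 CPM of Hbb-bt, 177 CPM of Hbb-bs and 302 CPM of alpha genes. Of its 701 cells, 361 (51.5%) carried a barcode found in another library. The other 340 cells, among them the cell with 1673 globin UMIs, held 785 CPM of Hbb-bt. That cell held 214 of their 309 Hbb-bt UMIs. The adult HP cluster coded Stroma held 146 CPM of Hbb-bt from 6 UMIs, with 51.8% of its 56 cells sharing a barcode. HSPC5, in which 1.59% of 629 cells shared one, held 39.1 CPM of Hbb-bt, 9.73 CPM of Hbb-bs and 11.4 CPM of alpha genes. In HSPC5 an alpha UMI was found in 14 of 91 Hbb-bt cells (15.4%) and 31 of 538 cells without (5.76%).

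Over 79 HP clusters of at least 20 cells and 50000 UMIs, the genes most like the summed adult-type globins by Pearson's r of log2(CPM + 1), among 11542 genes, were Hemgn (0.786), Car2 (0.609), Vamp5 (0.591), Reep6 (0.585), Fbxo3 (0.582), Ankrd13a (0.578), Muc13 (0.555), Pdzk1ip1 (0.553), Smim6 (0.553) and Smim5 (0.551). These values describe points that share libraries and depth. Hemgn, an erythroid nuclear protein, stood at 0.737 within E16.5 HP 2, 0.702 within E18.5, 0.713 within P0 and 0.746 within adult HP, where it ranked 41, 40, 20 and 43 among all genes compared. It stood at 0.842 within E16.5 HP 1, over 7 clusters, where it ranked 190, while Ankrd13a and Muc13 stood at -0.0554 and -0.0218 in the adult. Hbb-bt itself correlated at 0.473 with Hbb-bs and 0.371 with Hba-a1 over the clusters. For Hbb-bt alone, Hnf4a ranked 6th (0.605), with 0.983 within E16.5 HP 1, 0.896 within E16.5 HP 2, 0.867 within E18.5 HP, 0.570 within P0 HP and -0.0817 in adult HP. Within these libraries Hnf4a ranked 11, 2, 2, 244 and 6207. The E16.5 HP 1 value covers 7 clusters of a library with 10 Hbb-bt UMIs. HSPC1 held 7 of these, and 0 without cells sharing a barcode. For Hbb-bs and the alpha genes together, Paqr9 ranked first (0.769). For Hbb-y, values among the highest were 0.390 for Cd28, 0.374 for Serpinb9, 0.366 for Xcl1, 0.354 for Adgrg5, 0.346 for Itgae, 0.335 for AC163354.1, 0.331 for Phf11c, and 0.328 for Klrk1 and Nr4a2, and in counts this sparse they are no finding.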

How the data were processed

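Transcripts were sequenced on a droplet platform, and unique molecule counts per gene and cell were made by the authors with Cell Ranger 3.1.0 on mm10, with R 4.0 and Seurat 3.1.5 also named in the submitters' processing notes. The count matrix was used as deposited, with the deposited cluster codes and compartments; the mitochondrial fraction of each cell, deposited by the authors, served to check their filter only (highest 7.50%, lowest depth 358 UMIs). The authors removed the deepest cells of each sample as likely doublets, and no doublet caller was run here. The antibody tag matrix was not used.

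UMIs were summed per library and cluster and divided by the summed UMIs. Exact Poisson, Clopper-Pearson and conditional binomial intervals at 95% cover counting error only. Clusters of 20 cells or more entered ranges; 50000 UMIs and 500 summed counts were needed for likeness, on log2(CPM + 1). Cells were thinned to 1000 UMIs. Ratios between erythroid clusters needed 50 counts in either and were called at 2-fold. With 1 library per stage except E16.5 HP, no p-value was computed. Named genes were all members, genes of each fixed list of regulators, haem, iron, membrane and other erythroid genes, and the 10 genes most like the adult-type sum and Hbb-y. The rule was 2 to 6 genes of each fixed list, but more than 6 regulators are named. Hnf4a and Paqr9 were chosen after their values were seen. Some genes that these rules name are not reported here. Members and lists were chosen with earlier results of these data known; the Hbb-bt share, the cells split by Hbb-bt, the analyses without shared barcodes or without single cells rich in globin and the patterns of Hbb-bt and of the other adult genes alone were added after seeing the data. Promoters and transcripts came from RefSeq (GRCm38.p6), with 6 of 7 members matched to a promoter. Ratio and interval code was tested on simulated data. Python 3.11.15, NumPy 2.4.6, pandas 2.3.3, SciPy 1.17.1, Biopython 1.88 and matplotlib 3.10.9 were used.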

Additional observations from a re-analysis of the deposited data

Results flagged for a closer look

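Hbb-bt in erythroid clusters relative to HSPC clusters stood at 0.0616 in E18.5 HP and 0.101 in P0 HP but at 30.9 in adult HP, so the direction differed between stages. Without cells sharing a barcode, the E18.5 value was 0.0940. Each stage had 1 library, and the difference was not tested.

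Hbq1b, a theta-like alpha globin gene that was not among the listed members, had 24 UMIs in 19 cells of adult HP, or 0.405 CPM (0.260 to 0.603), of which 23 lay in EryP2. The other HP libraries held 0, 0, 1 and 1 UMIs, and the stromal libraries 2, 1, 9 and 4. Its gene sits in the alpha cluster, and no comparison above used it.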

How the results depend on the processing

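No paired analysis was possible because each stage and compartment had 1 library except E16.5 HP, so no 2 groups shared more than 1 replicate number, and no result came from a test. Of the values recomputed for the main results, 61 moved by less than their counting interval, 52 by more and 2 reversed; of 28 recomputed Hbb-bt shares, 18 moved by less. The causes of the moves below were not tested, beyond what each setting leaves out.

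The 4 adult-type globins summed to 63.4 CPM in the E16.5 HP libraries pooled, with a range of 1.57 to 72.4 when either library was left out. The mean of each cell's CPM in place of summed UMIs gave 96.7 for E18.5 HP, 138 for P0 HP and 861 for adult HP, against 106.6, 108 and 1156. Leaving out the 1% of cells with the most globin gave 68.0, 79.0 and 311. Leaving out shared barcodes gave 127 for E18.5 HP and 1173 for adult HP, and a minimum of 1000 UMIs gave 1165 for adult HP.

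For Hbb-bt, the mean of each cell's CPM gave 264 in TCell2, 521 in E18.5 HSPC2, 553 in P0 HSPC2, 47.5 in HSPC5 and 1963 in EryP2, and 3817 for Hbb-bs in EryP2. Without the top 1% of cells the values were 237 in TCell2, 73.6 in E16.5 HP 2 HSPC1, 426 in E18.5 HSPC2, 389 in P0 HSPC2, 27.0 in HSPC5 and 1014 in EryP2, with Hbb-bs at 14.5 in EryP1 and 1480 in EryP2.

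The erythroid to stroma ratios of 22.5, 19.7 and 29.6 reversed to 0.340 for E18.5 and 0.899 for P0 with other HP cells as the reference, and became 68.3 for the adult. The mean of each cell's CPM gave 6.80, 6.29 and 68.3. Cells with at least 2 erythroid markers gave 30.2, 14.1 and 24.6. Without shared barcodes the E18.5 ratio was 29.7 and the adult ratio 30.9. Without stromal cells with at least 100 globin UMIs the P0 ratio was 50.1 and the adult ratio 86.6.

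The share of HP cells outside erythroid clusters with a globin UMI was 3.01%, 5.01%, 7.22% and 4.27% for the 4 stages. It was 0.184% to 3.34% when either E16.5 library was left out. Without thinning it was 13.4%, 14.4%, 25.3% and 17.5%, and with 2000 UMIs it was 7.18%, 10.6% and 6.75% from E18.5 on. Asking for at least 2 UMIs gave 2.29%, 3.24% and 0.734%.

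The 374 higher and 1430 lower genes of adult against P0 erythroid clusters became 756 and 3300 at 1.5-fold, and 135 and 289 at 4-fold. With no count minimum and 1 count added to each gene in both clusters, they became 1923 and 2838. Of EryP2 cells with a UMI of either beta gene, 86.8% held Hbb-bt, while its share of beta UMIs was 38.4%. Cells with both genes count in full in the first value, so these are unlike measures. Depth limits Hbb-y, the alpha genes outside erythroid clusters and E16.5 HP 1, where single UMIs set the level.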
